A study of Mus musculus with 12 samples.

Results

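The genes described here are the 10 mouse genes of the core oxygen-sensing pathway of the cell. They are the alpha subunits of the hypoxia-inducible factors (HIF) Hif1a, Epas1 (which encodes HIF-2 alpha) and Hif3a, the beta subunits Arnt and Arnt2, the von Hippel-Lindau gene Vhl, the asparaginyl hydroxylase Hif1an and the prolyl hydroxylases Egln1, Egln2 and Egln3. They were chosen by name, with earlier results of these data known. Each had 1 transcript cluster (the probe group of a gene) on the array, so all 10 were measured among 19938 genes. The cells were MLO-Y4, a line derived from the long bones of a transgenic mouse that carried the SV40 large T antigen under the osteocalcin promoter, with a labelled age of 14 days. For 48 h they were kept inside the bore of a superconducting magnet, whose strong field has a steep gradient (LG-HMF), or outside it, and each of the 4 groups had 3 arrays. In μ-g the magnetic force opposes gravity, in 1-g, at the centre of the bore, no net force is added and the field is stronger, and in 2-g the force adds to gravity at the same field as in μ-g. The control group was kept at normal earth gravity in an incubator outside the magnet. Temperature and CO2 were held at the same setting inside and outside the magnet, and the line, 1 clone, was seeded at 30000 cells per well. The 3 plates in the magnet sat at different positions of 1 bore, so position in the bore and apparent gravity cannot be told apart, nor can the magnet and the place of culture for the control. Each array is labelled a biological replicate, but the sources used here do not say if the cultures were separate. The p-values therefore cover the spread between these arrays alone, and that spread may be technical.

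As background, cells with enough oxygen destroy the HIF alpha subunits as fast as they are made. The prolyl hydroxylases, of which the Egln1 product is the main one in most cells, use oxygen to hydroxylate prolines of the alpha subunits, and the Vhl protein then binds them for ubiquitination and degradation. The Hif1an product, also called factor inhibiting HIF, hydroxylates an asparagine and so keeps the coactivators away. At low oxygen the alpha subunits pair with Arnt, bind DNA and switch on genes of glycolysis, of the blood supply and of mitochondrial turnover, among them Egln1 and Egln3, which feed back on the pathway. In bone, osteocytes sit in mineralised matrix and both HIF alpha subunits are known to act in bone cells. The arrays measure RNA, so the amount of the HIF proteins was not measured here.

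The DNA letters that HIF dimers are known to bind are described ahead of the values. Egln1 and Egln3 are known HIF targets, and Egln2 is not described as induced in this way. The search was not made blind to the values. The core letters ACGTG and GCGTG were searched on both strands of the 250 bases before each annotated start in RefSeq promoters of build GRCm38.p6. CACGTG holds ACGTG on both strands, with the matches overlapping, and was counted once for each strand. Of 32851 promoters of that length, 16.6% held ACGTG, 28.2% held GCGTG and 38.6% held at least 1 of them. The table matched 9 of the members in 10 windows, and Epas1 was not matched. In 6 of these 9 genes at least 1 of the motifs was found, ACGTG in 4 and GCGTG in 4. The windows of the prolyl hydroxylases and of Hif1a are shown, because the results set these genes against each other, and capitals mark the matches.
Egln1: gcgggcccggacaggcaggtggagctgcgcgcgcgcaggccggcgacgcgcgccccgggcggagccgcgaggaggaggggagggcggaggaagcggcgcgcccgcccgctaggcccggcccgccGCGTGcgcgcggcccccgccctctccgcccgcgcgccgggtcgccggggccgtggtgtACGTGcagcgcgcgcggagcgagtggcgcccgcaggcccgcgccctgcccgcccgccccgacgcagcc
Egln3: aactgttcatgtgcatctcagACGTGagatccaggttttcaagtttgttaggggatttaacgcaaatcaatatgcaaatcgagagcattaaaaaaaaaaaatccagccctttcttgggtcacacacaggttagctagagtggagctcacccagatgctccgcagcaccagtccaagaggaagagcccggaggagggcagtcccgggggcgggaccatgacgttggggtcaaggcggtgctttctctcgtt
Egln2: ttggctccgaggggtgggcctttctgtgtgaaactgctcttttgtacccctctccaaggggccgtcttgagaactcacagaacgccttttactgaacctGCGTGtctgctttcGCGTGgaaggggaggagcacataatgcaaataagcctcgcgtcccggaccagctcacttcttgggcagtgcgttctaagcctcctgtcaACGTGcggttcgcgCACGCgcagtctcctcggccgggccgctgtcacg
Hif1a: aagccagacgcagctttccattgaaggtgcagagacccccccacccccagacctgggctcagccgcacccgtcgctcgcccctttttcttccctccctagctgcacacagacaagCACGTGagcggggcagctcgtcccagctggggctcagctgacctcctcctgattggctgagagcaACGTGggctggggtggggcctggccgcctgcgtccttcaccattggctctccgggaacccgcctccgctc
The Egln1 window lies at chr8:124949255-124949504 on the minus strand, with ACGTG at bases −68 to −64 and GCGTG at −126 to −122 from the start. The Egln3 window lies at chr12:54203875-54204124 on the minus strand and holds a single match, ACGTG at −229 to −225. The Egln2 window lies at chr7:27166803-27167052 on the minus strand and holds ACGTG at −48 to −44 and 3 matches of GCGTG, 1 of them on the other strand, and a second annotated start of Egln2 holds 1 further GCGTG. The Hif1a window lies at chr12:73907617-73907866 on the plus strand, before an annotated start that lies inside the span of the gene (chr12:73901324-73947554), and holds 3 matches of ACGTG, 2 of which are the strands of 1 CACGTG. In the windows of Vhl, Hif1an and Arnt2 neither motif was found in these 250 bases. A match of these letters is a description of the sequence, and no binding was measured.

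Values are on the log2 scale after Robust Multi-Chip Average (RMA) normalization, so 1 unit is a doubling, and the levels of different genes are not compared because they come from different probes. Array medians lay between 7.04 and 7.12, and the number of arrays limits the precision. Of the osteocyte and osteoblast markers, Pdpn (12.06 to 12.36 over the 12 arrays), Gja1 (11.95 to 12.39) and Alpl (10.55 to 11.15) stood beside Dmp1 (5.42 to 5.78), Phex (5.34 to 5.48), Mepe (5.05 to 5.17) and Sost (7.08 to 7.44), and the deposited values carry no detection call. The summed log2 value of the 10 measured markers ranged from 81.5 to 82.3 in μ-g, from 81.3 to 81.6 in 1-g, from 81.8 to 82.5 in 2-g and from 80.8 to 81.9 in control. As the RNA is of whole cultures, fewer cells of a type and less RNA per cell cannot be told apart.

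Across the 4 groups, 4 of the 10 members passed the F test of limma (adjusted p under 0.05), against 3.15% of all genes. They were Epas1 (adjusted p = 0.000157), Egln1 (adjusted p = 0.000324), Egln3 (adjusted p = 0.00178) and Arnt (adjusted p = 0.0437). By this test Epas1 ranked 4, Egln1 ranked 15 and Egln3 ranked 59 of the 19938 genes. The authors had listed Egln1 and Egln3 among the changed genes of these arrays and named Epas1 as a joint of their gene network. The number of members that passed, here and by comparison, is therefore not independent of these data. Vhl (adjusted p = 0.0598), Hif1a (adjusted p = 0.0682), Hif1an (adjusted p = 0.281), Arnt2 (adjusted p = 0.513), Hif3a (adjusted p = 0.817) and Egln2 (adjusted p = 0.994) did not pass. The calls of Epas1, Egln1 and Egln3 held when any 1 array was left out, while Arnt lost its call without any 1 of the 12 arrays (adjusted p between 0.0509 and 0.124) and Hif1a gained one without μ-g replicate 2 (adjusted p = 0.0403).

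**Figure D1:**
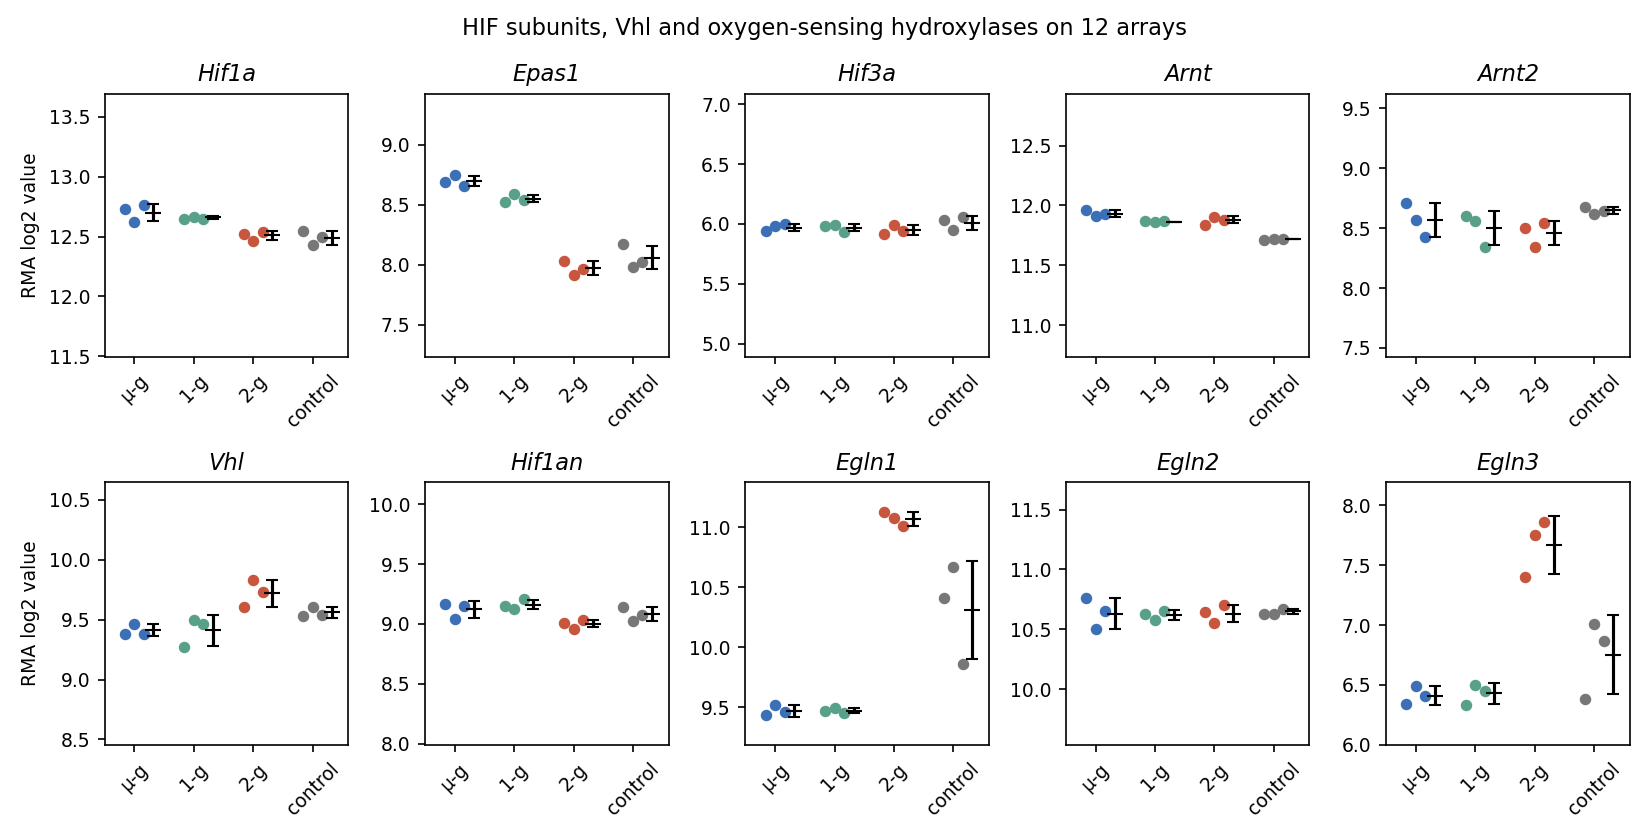
RMA log2 values of the 10 members on the 12 arrays, by group, with the mean and SD of 3 arrays in black beside the points, and each panel spans the same number of log2 units. Epas1 lay between 8.52 and 8.75 on all 6 arrays of μ-g and 1-g and between 7.91 and 8.17 on the 6 of 2-g and control, while Egln1 lay between 9.43 and 9.52 on the μ-g and 1-g arrays and between 11.01 and 11.13 on the 2-g arrays.

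Epas1, the HIF alpha subunit best known from endothelial cells and from the control of erythropoietin, was higher at μ-g and 1-g than at 2-g and in control. The gene spans chr17:86753864-86833410 in RefSeq of build GRCm38.p6 and was read by transcript cluster 10447317. Its log2 values were 8.69, 8.75 and 8.66 in μ-g, 8.52, 8.59 and 8.54 in 1-g, 8.03, 7.91 and 7.96 in 2-g, and 8.17, 7.98 and 8.02 in control. The μ-g and 1-g arrays lay above all arrays of 2-g and control without overlap, as for 1.57% of all genes. The μ-g arrays lay above the 1-g arrays as well, as for 2.95% of all genes. Epas1 rose in μ-g v.s. control by 0.64 (SE 0.06, 1.56-fold, adjusted p = 0.00132 from limma) and in 1-g v.s. control by 0.49 (SE 0.06, 1.41-fold, adjusted p = 0.0105). It was higher in μ-g v.s. 2-g by 0.73 (SE 0.06, 1.66-fold, adjusted p = 7.04e-05) and fell in 2-g v.s. 1-g by 0.58 (SE 0.06, adjusted p = 0.000287). In 2-g v.s. control the difference of −0.09 (95% interval −0.21 to 0.03, adjusted p = 0.478) did not pass, and the groups overlapped. In μ-g v.s. 1-g the difference was 0.15 (SE 0.06, adjusted p = 1), with an unadjusted p = 0.0212 from limma, and no gene of the array passed in that comparison. Without any 1 of the 1-g arrays the 1-g v.s. control call of Epas1 was lost, at adjusted p = 0.0688, 0.0851 and 0.0593 without replicates 1, 2 and 3. In these 3 fits its log2 fold change was 0.51, 0.47 and 0.50, and 0, 0 and 1 of all genes passed in that comparison. As Epas1 is strongly expressed in endothelial cells, the endothelial markers are given beside it. Of the 6 markers, 0 passed the F test of limma at adjusted p and 0 at an unadjusted p under 0.05 (17.9% of all genes), and their summed log2 value was 37.9 to 38.7 in μ-g, 37.6 to 38.4 in 1-g, 37.5 to 37.6 in 2-g and 37.8 to 38.2 in control. In at least 1 of the 6 comparisons 3 of them (Pecam1, Tie1 and Vwf) had an unadjusted p under 0.05 of limma, as did 36% of all genes. Pecam1 differed by 0.14 between μ-g and 2-g (adjusted p = 0.181). In 2-g v.s. 1-g Tie1 differed by −0.16 (adjusted p = 0.291) and Vwf by −0.16 (adjusted p = 0.316), so these values were lower in 2-g, where Epas1 was also low, and their part in its result was not tested.

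Hif1a, the alpha subunit that drives most of the glycolytic genes, was likewise highest at μ-g and 1-g, but within a narrower range. It was read by transcript cluster 10396421 and had log2 values of 12.73, 12.62 and 12.76 in μ-g, 12.65, 12.66 and 12.65 in 1-g, 12.52, 12.46 and 12.54 in 2-g, and 12.55, 12.43 and 12.50 in control. The 6 arrays of μ-g and 1-g lay above the 6 of 2-g and control without overlap, as for 1.57% of all genes, within a span of 0.33 over all 12 arrays. The log2 fold change was 0.21 (SE 0.05, 1.15-fold, adjusted p = 0.0867) in μ-g v.s. control, 0.16 (SE 0.05, adjusted p = 0.248) in 1-g v.s. control and 0.01 (SE 0.05, adjusted p = 0.943) in 2-g v.s. control, none of which passed. In μ-g v.s. 2-g it was 0.19 (SE 0.05, adjusted p = 0.067), which passed with the replicate number as a block (adjusted p = 0.0218). Without μ-g replicate 2, the lowest of its group, Hif1a passed in μ-g v.s. control (0.25, adjusted p = 0.0417) and in μ-g v.s. 2-g (0.24, adjusted p = 0.0356). In 2-g v.s. 1-g the difference of −0.15 (SE 0.05, adjusted p = 0.173) did not pass.

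Hif3a (chr7:17030993-17062427, cluster 10560329), an alpha subunit whose short forms restrain the others, stayed within 5.92 to 6.06 on all 12 arrays. Its values were 5.94, 5.98 and 6.0 in μ-g, 5.98, 5.99 and 5.93 in 1-g, 5.92, 5.99 and 5.94 in 2-g, and 6.03, 5.95 and 6.06 in control, so all groups overlapped. Whether this low log2 value lies above background was not tested.

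Arnt (chr3:95434367-95497240, cluster 10494238), the common partner of the alpha subunits, was lowest in control. Its log2 values were 11.96, 11.91 and 11.93 in μ-g, 11.87, 11.86 and 11.87 in 1-g, 11.84, 11.90 and 11.88 in 2-g, and 11.71, 11.72 and 11.72 in control. All 9 arrays of the magnet lay above the 3 control arrays. Each group taken alone, 11.5% of all genes lay above control without overlap in μ-g, 10.5% in 1-g and 10.2% in 2-g. The share with all magnet groups above control at once was not computed. The μ-g arrays lay above those of 1-g and of 2-g, as for 2.95% and 14.2% of all genes. These differences were not beyond the error of the fit (0.07 over 1-g, SE 0.04, adjusted p = 1, and 0.05 over 2-g, SE 0.04, adjusted p = 0.533). Arnt rose in μ-g v.s. control by 0.21 (SE 0.04, 1.16-fold, adjusted p = 0.0347). The difference was 0.15 (SE 0.04, adjusted p = 0.171) in 1-g v.s. control and 0.16 (SE 0.04, adjusted p = 0.055) in 2-g v.s. control, and the second of these passed with the replicate number as a block (adjusted p = 0.0343). The μ-g v.s. control call was lost without μ-g replicates 1 or 3, 1-g replicates 1 or 3, 2-g replicate 3 or any control replicate, each left out alone, at adjusted p between 0.0522 and 0.165, and with arrays centred on their medians (adjusted p = 0.0661). Without μ-g replicates 1 and 3 only 4 and 2 of all genes passed in that comparison. Arnt2 (chr7:84246274-84411741, cluster 10565292), a partner of the same family that is best known from brain and kidney, had values of 8.71, 8.57 and 8.43 in μ-g, 8.60, 8.56 and 8.34 in 1-g, 8.50, 8.34 and 8.54 in 2-g, and 8.68, 8.62 and 8.64 in control. The 2-g arrays lay below the control arrays, as for 11% of all genes, with a difference of −0.18 (SE 0.08, adjusted p = 0.289) that did not pass. The 1-g arrays also lay below the control arrays (−0.14, SE 0.08, adjusted p = 0.591), as for 4.42% of all genes. The μ-g arrays overlapped with the control arrays (−0.07, SE 0.08, adjusted p = 0.772).

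Vhl (chr6:113623994-113631634, cluster 10540790), the receptor that takes hydroxylated alpha subunits to the ubiquitin ligase, was highest in 2-g. Its log2 values were 9.38, 9.46 and 9.38 in μ-g, 9.27, 9.50 and 9.46 in 1-g, 9.61, 9.83 and 9.73 in 2-g, and 9.53, 9.61 and 9.54 in control. The 2-g arrays lay above all arrays of μ-g and of 1-g, as for 6.9% and 6.42% of all genes. They overlapped with the control arrays near 9.61. The μ-g arrays and the 1-g arrays lay below all control arrays, as for 5.7% and 4.42% of all genes. Vhl fell in μ-g v.s. 2-g by 0.32 (SE 0.07, 1.24-fold lower, adjusted p = 0.0371) and rose in 2-g v.s. 1-g by 0.31 (SE 0.07, 1.24-fold, adjusted p = 0.0438). Against control the log2 differences of −0.15 in μ-g (SE 0.07, adjusted p = 0.359), −0.15 in 1-g (SE 0.07, adjusted p = 0.477) and 0.16 in 2-g (SE 0.07, adjusted p = 0.274) did not pass. The μ-g v.s. 2-g call was lost without μ-g replicates 1 or 3, 2-g replicates 2 or 3 or control replicates 1 or 3, each left out alone (adjusted p between 0.0505 and 0.139). The 2-g v.s. 1-g call was lost without any array but 2-g replicate 1 (adjusted p between 0.0524 and 0.148), and also with an intensity trend and robust prior (adjusted p = 0.0513) and with all transcript clusters tested (adjusted p = 0.0515). When only the 2 groups of a comparison were fitted, neither call of Vhl held (adjusted p = 0.0699 for μ-g against 2-g and 0.14 for 2-g against 1-g). With the replicate number as a block, both calls were kept (limma, adjusted p = 0.00381 for μ-g against 2-g and 0.00476 for 2-g against 1-g).

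Hif1an (chr19:44562854-44576274, cluster 10463380), the asparaginyl hydroxylase, spanned 0.25 log2 units over the 12 arrays. Values were 9.17, 9.04 and 9.15 in μ-g, 9.15, 9.12 and 9.21 in 1-g, 9.01, 8.96 and 9.03 in 2-g, and 9.14, 9.02 and 9.07 in control. The 2-g arrays lay below those of μ-g, as for 14.2% of all genes, and below those of 1-g, as for 13%. They overlapped with control. The log2 difference was 0.12 (SE 0.05, adjusted p = 0.262) between μ-g and 2-g and −0.16 (SE 0.05, adjusted p = 0.149) in 2-g v.s. 1-g, which passed with the replicate number as a block (adjusted p = 0.0455).

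Egln1 (chr8:124908587-124949254, cluster 10582712) showed the widest span of the 10 genes, 1.7 log2 units, and was lowest in μ-g and 1-g, the groups in which Epas1 was highest. Its log2 values were 9.43, 9.52 and 9.46 in μ-g, 9.47, 9.49 and 9.45 in 1-g, 11.13, 11.08 and 11.01 in 2-g, and 10.41, 10.67 and 9.86 in control. The control arrays lay between the others without overlap. Each group taken alone, 5.7% of all genes lay below control in this way in μ-g, 4.42% in 1-g, and 10.2% lay above it in 2-g. The control arrays were spread over 0.41 (SD, n = 3), against 0.05 in μ-g, 0.02 in 1-g and 0.06 in 2-g. Egln1 fell in μ-g v.s. control by 0.84 (SE 0.15, 1.79-fold lower, adjusted p = 0.0300) and in 1-g v.s. control by 0.84 (SE 0.15, 1.79-fold lower, adjusted p = 0.0396). It rose in 2-g v.s. control by 0.76 (SE 0.15, 1.69-fold, adjusted p = 0.018). In μ-g v.s. 2-g it was lower by 1.60 on the log2 scale (SE 0.15, 3.04-fold lower, adjusted p = 0.000159), and in 2-g v.s. 1-g it was higher by 1.60 (SE 0.15, 3.04-fold, adjusted p = 0.000207). In μ-g v.s. 1-g the difference of 0 (95% interval −0.32 to 0.32, adjusted p = 1) did not pass.

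The calls of Egln1 against control changed with the arrays left out. In μ-g v.s. control the call was lost without μ-g replicate 1 (adjusted p = 0.129), μ-g replicate 3 (adjusted p = 0.112), control replicate 1 (adjusted p = 0.0779) or control replicate 2 (adjusted p = 0.063). Of all genes 4, 2, 51 and 28 passed there in these fits. Without control replicate 3, the lowest control array for Egln1, the log2 fold change was −1.07 (adjusted p = 0.00019). In 1-g v.s. control the call was kept only without control replicate 3 (−1.07, adjusted p = 0.000342) and was lost without any other of the 12 arrays (adjusted p between 0.0503 and 0.15). Between 0 and 61 of all genes passed there in the fits that lost it. In 2-g v.s. control the Egln1 call was lost without 2-g replicate 2 (adjusted p = 0.0558) or 2-g replicate 3 (adjusted p = 0.064), where 294 and 145 of all genes passed. The log2 fold change in 2-g v.s. control was 0.53 without control replicate 3 and 0.93 without control replicate 2. The calls of μ-g against 2-g and of 2-g against 1-g held without any 1 array.

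Egln3 (chr12:54178981-54203874, cluster 10400304), the prolyl hydroxylase that is most strongly induced at low oxygen in many cells, was highest in 2-g. Its log2 values were 6.34, 6.49 and 6.41 in μ-g, 6.33, 6.50 and 6.45 in 1-g, 7.40, 7.75 and 7.86 in 2-g, and 6.38, 7.01 and 6.87 in control. The 2-g arrays lay above all others, and control replicate 1, at 6.38, lay within the range of μ-g and 1-g. Of all genes, 10.2% lay higher in 2-g than in control without overlap, 6.9% than in μ-g and 6.42% than in 1-g. Egln3 rose in 2-g v.s. control by 0.92 (SE 0.15, 1.89-fold, adjusted p = 0.00829) and in 2-g v.s. 1-g by 1.24 (SE 0.15, 2.37-fold, adjusted p = 0.000904), and was lower in μ-g v.s. 2-g by 1.26 on the log2 scale (SE 0.15, 2.39-fold lower, adjusted p = 0.00078). These calls held without any 1 array. The differences of −0.34 in μ-g v.s. control (SE 0.15, adjusted p = 0.326) and −0.33 in 1-g v.s. control (SE 0.15, adjusted p = 0.453) did not pass. In μ-g, 1-g and control all values of Egln3 lay below the array medians (7.04 to 7.12). Whether they lie above background was not tested.

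Egln2 (chr7:27158658-27166802, cluster 10561170), the third prolyl hydroxylase, known to respond to oestrogen rather than to low oxygen in human breast cancer cells, spanned 0.26 log2 units and passed in no comparison. It had values of 10.76, 10.50 and 10.65 in μ-g, 10.63, 10.58 and 10.65 in 1-g, 10.64, 10.55 and 10.70 in 2-g, and 10.63, 10.63 and 10.67 in control. All groups overlapped. Where Egln1 differed by −1.60 in μ-g v.s. 2-g, Egln2 differed by 0.00 (95% interval −0.13 to 0.14, adjusted p = 0.984), and where Egln3 rose by 0.92 in 2-g v.s. control, Egln2 differed by −0.02 (95% interval −0.16 to 0.12, adjusted p = 0.943).

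**Figure D2:**
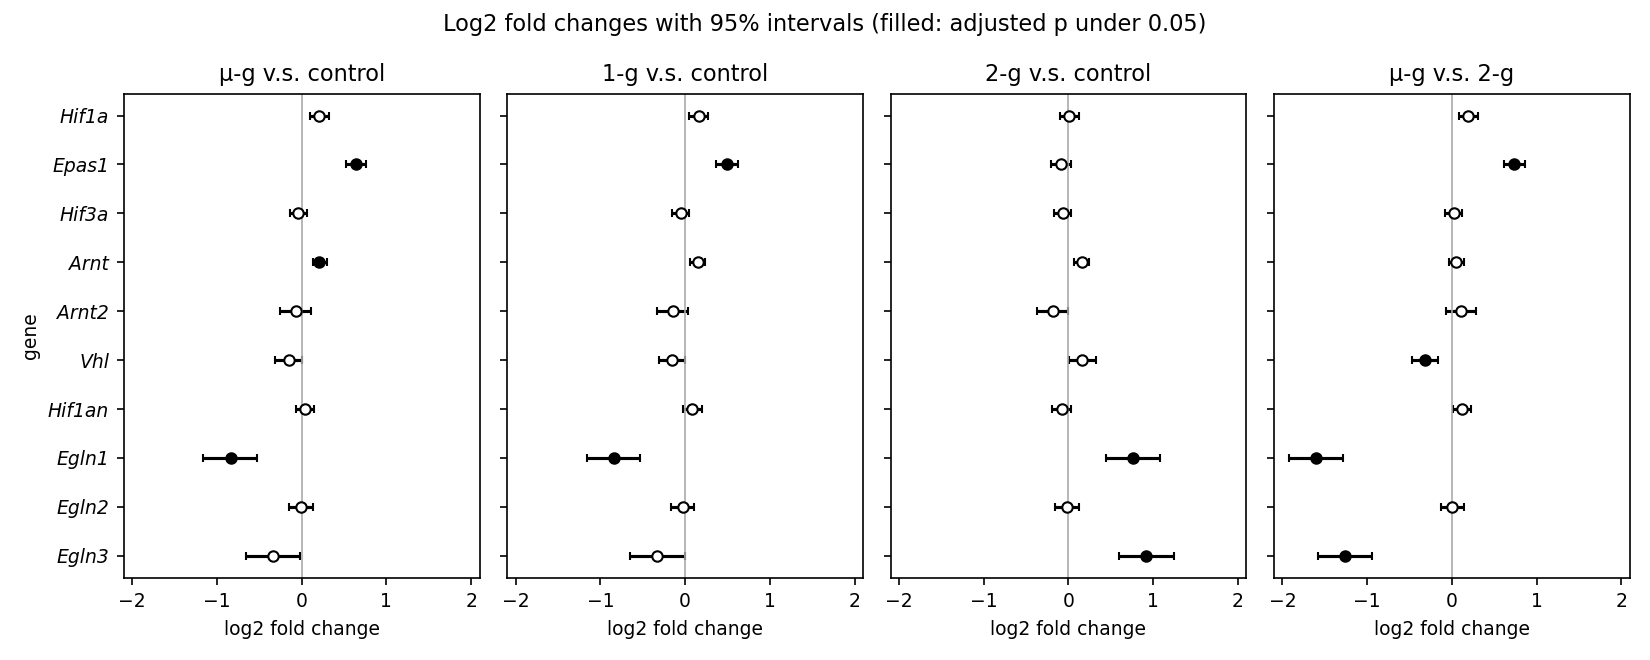
Log2 fold change of each member in 4 comparisons with its 95% interval from limma; filled points have an adjusted p under 0.05 over all genes. In μ-g v.s. 2-g Epas1 lies at 0.73 and Egln1 at −1.60, with Hif1a, Hif3a, Arnt, Arnt2, Hif1an and Egln2 as open points.

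Counted by comparison, 2 members rose and 1 fell in μ-g v.s. control (Epas1 and Arnt up, Egln1 down), against 0.436% of all genes that rose and 0.386% that fell there. In 1-g v.s. control 1 rose and 1 fell (Epas1 up, Egln1 down), against 0.176% and 0.145% of all genes. In 2-g v.s. control 2 rose and 0 fell (Egln1 and Egln3 up), against 1.68% that rose and 1.43% that fell of all genes. In μ-g v.s. 2-g 1 rose and 3 fell (Epas1 up, Vhl, Egln1 and Egln3 down), against 1.38% that rose and 1.49% that fell of all genes. Between 2-g and 1-g 3 rose and 1 fell (Vhl, Egln1 and Egln3 up, Epas1 down), against 1.26% that rose and 1% that fell of all genes. In μ-g v.s. 1-g limma called 0 members and 0% of all genes at adjusted p, and 1 member and 2.31% of all genes at an unadjusted p under 0.05. The comparisons with control share the control arrays, so they are not independent of each other. When only the 2 groups of a comparison were fitted, 0 members passed in each of the comparisons with control, with adjusted p = 0.0822 for Epas1 in μ-g v.s. control at the same fold change. Of all genes 0, 0 and 151 passed in such fits of μ-g, 1-g and 2-g v.s. control.

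The members were then set against each other within each array, which removes any shift of a whole array. An exact permutation of the 12 arrays over the 4 groups was used for 5 such differences, with Benjamini-Hochberg adjustment over the 5, and only how a difference varies between groups is read, not its size. Epas1 minus Hif1a was −4.00 ± 0.12 in μ-g, −4.11 ± 0.03 in 1-g, −4.54 ± 0.05 in 2-g and −4.44 ± 0.05 in control (SD, n = 3 each; exact permutation p = 0.000195, adjusted p = 0.000649). The difference was higher by 0.43 in μ-g than in control and by 0.33 in 1-g than in control, and the test is over all 4 groups and not of a single pair of them. The ranges were −4.09 to −3.87 in μ-g and −4.13 to −4.08 in 1-g, which overlap, and −4.58 to −4.48 in 2-g and −4.48 to −4.38 in control, where the 2-g arrays lay below the control arrays by less than the rounding shows.

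The differences of both feedback genes from Hif1a varied between the groups. Egln1 minus Hif1a was −3.23 ± 0.12 in μ-g, −3.18 ± 0.01 in 1-g, −1.43 ± 0.09 in 2-g and −2.18 ± 0.44 in control (SD, n = 3 each; exact permutation p = 0.00026, adjusted p = 0.000649). Egln3 minus Hif1a was −6.29 ± 0.14 in μ-g, −6.23 ± 0.08 in 1-g, −4.84 ± 0.24 in 2-g and −5.74 ± 0.39 in control (SD, n = 3 each; exact permutation p = 0.00182, adjusted p = 0.00227). For Egln1 the control arrays lay between 2-g and the other magnet groups without overlap, while for Egln3 the 2-g arrays lay above all others and control replicate 1, at −6.17, lay within the range of μ-g and 1-g. Egln2 minus Egln1 was 1.16 ± 0.18 in μ-g, 1.15 ± 0.05 in 1-g, −0.44 ± 0.12 in 2-g and 0.33 ± 0.43 in control (SD, n = 3 each; exact permutation p = 0.000584, adjusted p = 0.000974), so Egln1 and Egln2 did not vary in parallel between the groups. For Egln3 minus Egln1 the values were −3.06 ± 0.03 in μ-g, −3.04 ± 0.08 in 1-g, −3.40 ± 0.30 in 2-g and −3.56 ± 0.53 in control (SD, n = 3 each). That difference did not pass (exact permutation p = 0.146, adjusted p = 0.146), which does not show that both genes changed alike. It passed without control replicate 3 (exact permutation, adjusted p = 0.0218), the array in which Egln1 was lowest among the controls and Egln3 was not.

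**Figure D3:**
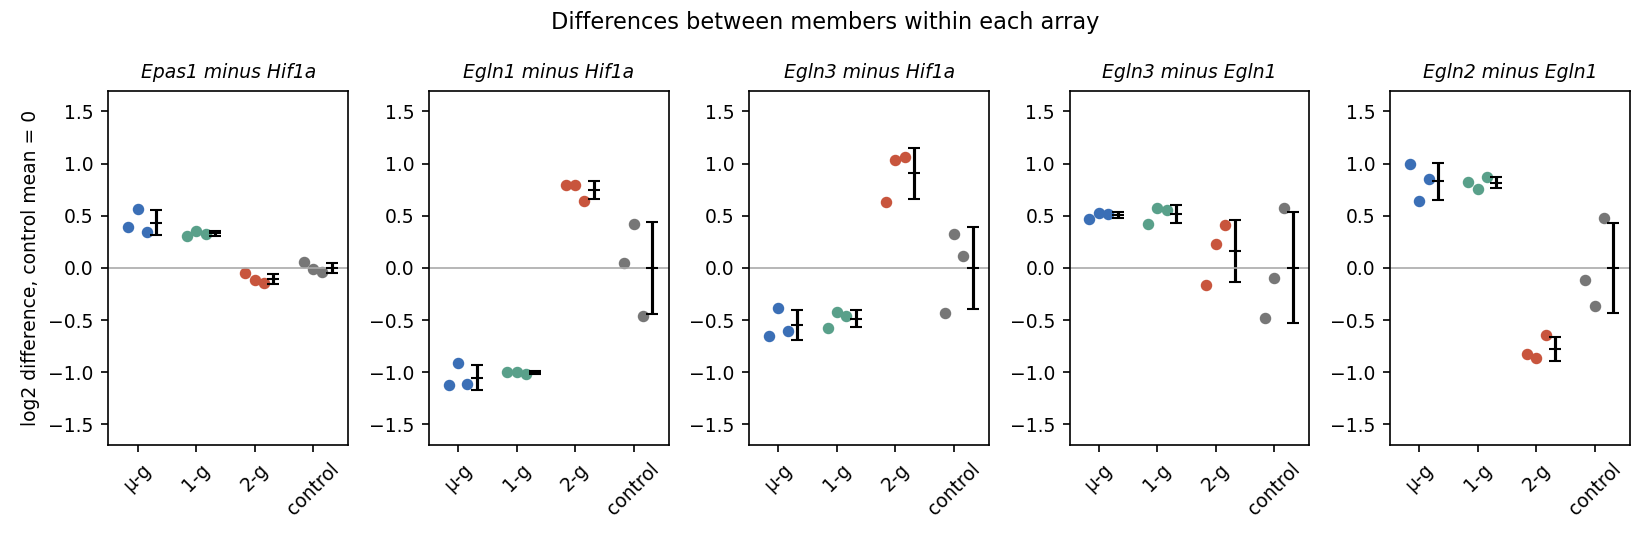
Within-array log2 differences between members on the 12 arrays, by group, shifted so that the control mean is 0, with the mean and SD of 3 arrays in black. Relative to control, Epas1 minus Hif1a lies 0.43 higher in μ-g and Egln1 minus Hif1a 1.05 lower, while for Egln3 minus Egln1 the control arrays reached from −4.04 to −2.99 before the shift.

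Among the genes that HIF-1 is known to switch on, those that passed were lower at μ-g and 1-g and higher at 2-g than in control, as Egln1 was. Of 29 measured HIF-1 target genes, 0 rose and 12 fell in μ-g v.s. control, 0 rose and 8 fell in 1-g v.s. control, and 14 rose and 0 fell in 2-g v.s. control. Of all genes, 0.386% fell in μ-g, 0.145% fell in 1-g and 1.68% rose in 2-g against control. With the replicate number as a block, 18 targets fell in 1-g v.s. control, where 0.737% of all genes did, and 22 rose in 2-g v.s. control, where 5.06% did. In μ-g v.s. 2-g 25 targets fell, against 1.49% of all genes, and in 2-g v.s. 1-g 23 rose, against 1.26%. The authors reported several of the targets from these arrays, among them Car9, Ak4, Aldoc, Adm and P4ha1, so the list is not independent of these data. Their median log2 fold changes were −0.39, −0.37 and 0.47 in μ-g, 1-g and 2-g against control and −0.87 in μ-g v.s. 2-g, where the medians over all genes were 0.02, 0.02, 0.00 and 0.03. Mxi1, a transcriptional repressor of the Myc network, averaged 8.76 ± 0.08 in μ-g, 8.82 ± 0.01 in 1-g, 9.67 ± 0.10 in 2-g and 8.99 ± 0.06 in control (SD, n = 3 each). Gys1, the glycogen synthase of muscle and most other tissues, averaged 10.95 ± 0.07 in μ-g, 11 ± 0.09 in 1-g, 12.08 ± 0.06 in 2-g and 11.44 ± 0.15 in control. Both rose in 2-g v.s. control, Mxi1 by 0.67 (SE 0.06, adjusted p = 0.00161) and Gys1 by 0.64 (SE 0.07, adjusted p = 0.00247). Higd1a, a mitochondrial protein of the inner membrane, averaged 7.81 ± 0.10 in μ-g, 7.84 ± 0.19 in 1-g, 9.57 ± 0.09 in 2-g and 8.82 ± 0.37 in control, and Bnip3, a mitophagy receptor, 9.89 ± 0.29 in μ-g, 10.14 ± 0.13 in 1-g, 12.58 ± 0.08 in 2-g and 11.59 ± 0.56 in control. Other targets did not pass the F test of limma, such as Vegfa (adjusted p = 0.929) and Hk2 (adjusted p = 0.296). Vegfa differed by 0.03 (SE 0.05) in 2-g v.s. control.

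The mean log2 value of the 29 targets was 10.29, 10.37 and 10.21 on the μ-g arrays, 10.34, 10.40 and 10.26 on the 1-g arrays, 11.49, 11.57 and 11.42 on the 2-g arrays, and 10.91, 11.19 and 10.68 on the control arrays. Control replicate 3 was the lowest control array for this mean, for 22 of the 29 targets and for Egln1, whereas for Egln3 it was control replicate 1. The number of targets that fell in μ-g v.s. control was 0 without μ-g replicate 1 or 3, 4 without control replicate 1 and 5 without control replicate 2. Of all genes only 4, 2, 51 and 28 passed there, in either direction, without μ-g replicates 1 and 3 and control replicates 1 and 2. In 1-g v.s. control the number of targets that fell was 0 without μ-g replicate 3, any 1-g replicate, 2-g replicate 3 or control replicate 1, 1 without control replicate 2, 3 without μ-g replicate 1 or 2-g replicate 1, and 4 without 2-g replicate 2. Between 0 and 46 of all genes passed in those fits, and 0, 0 and 1 without 1-g replicates 1, 2 and 3. In 2-g v.s. control the number of targets that rose was 8, 7 and 5 without 2-g replicates 1, 2 and 3, and 4 without control replicate 1 or 3. There 478, 294, 145, 204 and 159 of all genes passed, in the same order. In μ-g v.s. 2-g at least 22 of the 29 fell without any 1 array, in fits where 219 to 670 of all genes passed.

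Of 10 measured genes described as HIF-2 targets in other cell types, 1 passed. Slc11a2, a divalent metal transporter that takes up iron, averaged 11.20 ± 0.02 in μ-g, 11.18 ± 0.02 in 1-g, 10.92 ± 0.03 in 2-g and 11.15 ± 0.05 in control (SD, n = 3 each). It fell in 2-g v.s. control by 0.23 (SE 0.04, adjusted p = 0.0172), a call lost without 2-g replicates 2 or 3 or control replicate 3, and was higher in μ-g v.s. 2-g by 0.28 (SE 0.04, adjusted p = 0.00579). In μ-g v.s. control, where Epas1 rose by 0.64, Slc11a2 differed by 0.05 (SE 0.04, adjusted p = 0.712). In that comparison 0 of the 10 passed, and 0 had an unadjusted p under 0.05 of limma, where 14% of all genes did. Epo, the erythropoietin gene, averaged 5.48 ± 0.03 in μ-g, 5.46 ± 0.08 in 1-g, 5.40 ± 0.04 in 2-g and 5.53 ± 0.04 in control, and did not pass. Pou5f1, Arg1, Tek, Cdh5, Cybrd1 and Flt1 of this list also had low group means, between 5.75 and 6.66. Whether these genes and Epo lie above background was not tested. The median log2 fold change of the 10 was 0.02 in μ-g v.s. control and −0.05 in 2-g v.s. control. Tek and Cdh5 of this list are also endothelial markers.

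**Figure D4:**
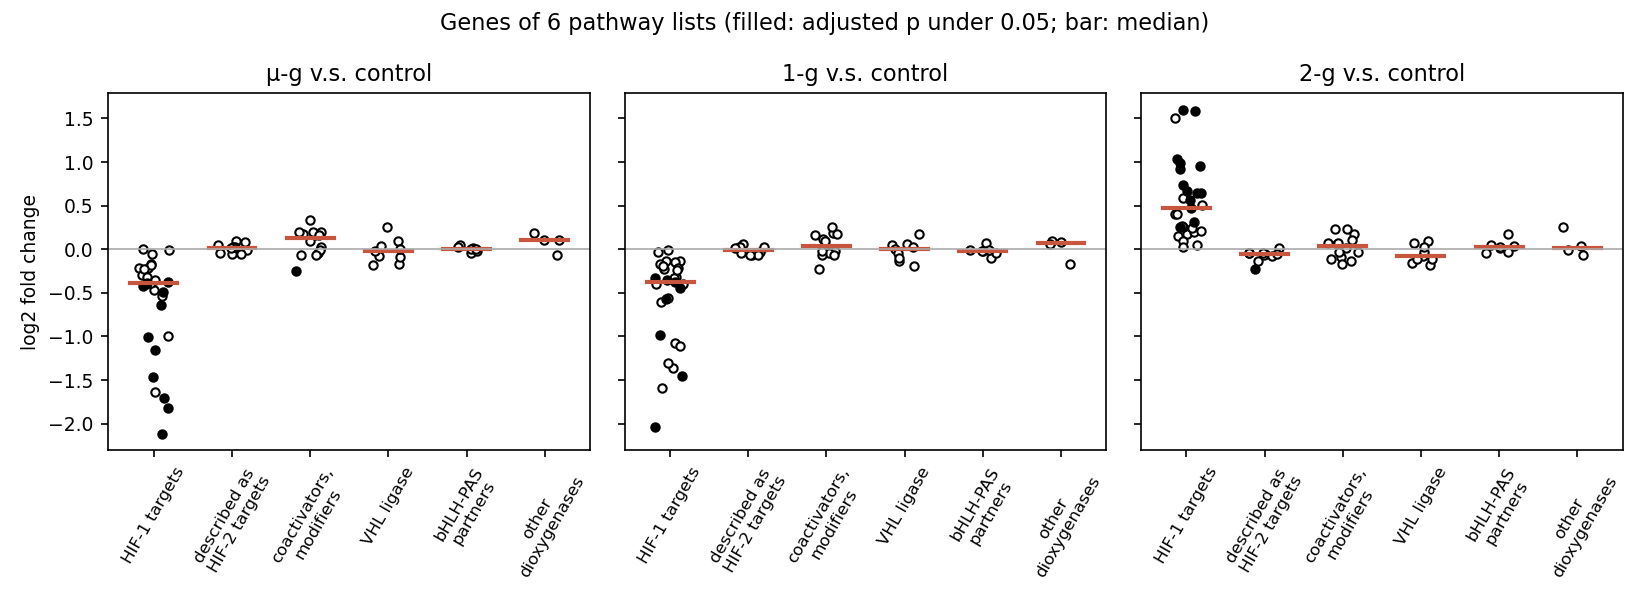
Log2 fold changes of the genes of 6 lists against control, 1 point a gene, in μ-g, 1-g and 2-g; filled points have an adjusted p under 0.05 and bars are medians. The HIF-1 targets lie between −2.12 and 0.00 in μ-g and between 0.03 and 1.60 in 2-g, and outside that list Cited2 in μ-g and Slc11a2 in 2-g are the only filled points.

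Few cofactors of the pathway passed. Of 14 measured coactivators, chaperones and modifiers of HIF, Cited2 passed, which competes with HIF for the coactivators and is itself a HIF target. Cited2 averaged 12.23 ± 0.05 in μ-g, 12.24 ± 0.01 in 1-g, 12.53 ± 0.05 in 2-g and 12.48 ± 0.06 in control (SD, n = 3 each). It fell in μ-g v.s. control by 0.25 (SE 0.05, adjusted p = 0.0415), a call lost without any 1 array but μ-g replicate 2 or 2-g replicate 2 (adjusted p between 0.0563 and 0.174), and in μ-g v.s. 2-g by 0.30 (SE 0.05, adjusted p = 0.00649), and was higher in 2-g v.s. 1-g by 0.29 (SE 0.05, adjusted p = 0.00987). In 1-g v.s. control it differed by −0.23 (SE 0.05, adjusted p = 0.0753), which passed with the replicate block (adjusted p = 0.0259). Senp1, a SUMO protease that acts on HIF-1 alpha in mice, averaged 9.82 ± 0.07 in μ-g, 9.80 ± 0.05 in 1-g, 9.69 ± 0.04 in 2-g and 9.63 ± 0.04 in control, and did not pass. Sirt1, a deacetylase known to act on HIF-2 alpha, averaged 9.42 ± 0.13 in μ-g, 9.36 ± 0.04 in 1-g, 9.09 ± 0.10 in 2-g and 9.26 ± 0.23 in control, and passed in μ-g v.s. 2-g with the replicate block only (0.33, adjusted p = 0.0256).

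Of 9 genes listed with the Vhl ubiquitin ligase, deubiquitinases among them, of 7 other bHLH-PAS genes whose products pair with Arnt and of 4 other oxygen-dependent dioxygenases, 0 passed at adjusted p of limma in any comparison. Kdm3a and P4ha1, also oxygen-dependent dioxygenases, were counted among the HIF-1 targets and not in the list of 4. In 2-g v.s. control Kdm3a rose by 0.56 (SE 0.12, adjusted p = 0.0269 of limma) and P4ha1 by 0.96 (SE 0.11, adjusted p = 0.00253). At an unadjusted p under 0.05 in at least 1 of the 6 comparisons, 5 of the 9 genes listed with the Vhl ligase, 1 of the 7 bHLH-PAS genes and 2 of the 4 dioxygenases did, where 36% of all genes did. Nedd8, the modifier that activates cullins, averaged 10.66 ± 0.02 in μ-g, 10.69 ± 0.06 in 1-g, 10.64 ± 0.07 in 2-g and 10.82 ± 0.02 in control (SD, n = 3 each), and passed in 2-g v.s. control with the replicate block only (−0.18, adjusted p = 0.039). Cul2, the cullin of the Vhl ligase, passed in μ-g v.s. 2-g (0.25, adjusted p = 0.0366), and Ahr, the aryl hydrocarbon receptor, passed in 2-g v.s. 1-g (0.28, adjusted p = 0.0432), both with that block only. P4htm, a transmembrane prolyl hydroxylase, averaged 7.01 ± 0.03 in μ-g, 6.90 ± 0.04 in 1-g, 7.00 ± 0.02 in 2-g and 7.07 ± 0.06 in control and did not pass.

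Markers of other cells that moved with the 2-g group stand beside these results. Ctsk, known from osteoclasts, averaged 12.61 ± 0.16 in μ-g, 12.65 ± 0.10 in 1-g, 12.04 ± 0.16 in 2-g and 12.54 ± 0.08 in control, and fell in 2-g v.s. control by 0.50 (SE 0.10, adjusted p = 0.0179), a call lost without 2-g replicates 2 or 3 or control replicates 1 or 3. Cd68, known from macrophages, averaged 9.78 ± 0.19 in μ-g, 9.89 ± 0.09 in 1-g, 9.24 ± 0.15 in 2-g and 9.64 ± 0.19 in control, and was higher in μ-g v.s. 2-g by 0.55 (SE 0.11, adjusted p = 0.0247), a call lost without μ-g replicates 1 or 3 or 2-g replicates 2 or 3. Each was the 1 gene of its list, of 5 osteoclast and of 6 macrophage markers, that passed the F test. Csf1r, a receptor also known from macrophages, averaged 7.14 ± 0.08 in μ-g, 7.12 ± 0.07 in 1-g, 7.29 ± 0.06 in 2-g and 7.38 ± 0.06 in control, and did not pass the F test (adjusted p = 0.0534). It differed by −0.15 between μ-g and 2-g (limma, adjusted p = 0.196), the opposite sign to Cd68, by −0.24 in μ-g v.s. control (adjusted p = 0.0832) and by −0.26 in 1-g v.s. control (adjusted p = 0.0929), which passed with the replicate block (adjusted p = 0.038). The summed log2 value of the osteoclast list was 37.5 to 37.9 in μ-g, 37.5 to 37.6 in 1-g, 36.7 to 37.3 in 2-g and 37.3 to 37.5 in control, and that of the macrophage list 43.0 to 43.2 in μ-g, 42.9 to 43.2 in 1-g, 42.4 to 42.6 in 2-g and 42.8 to 43.3 in control. Of the osteocyte and osteoblast markers Col1a1 passed, with a rise in 2-g v.s. control of 0.41 (SE 0.08, adjusted p = 0.0177), a call lost without 2-g replicate 3 or control replicates 1 or 3. The part of these markers in the results for Epas1, Egln1 and Egln3 was not tested.

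The genes most like each called member were found by the root mean square (RMS) difference of their log2 profiles over the 12 arrays, each centred on its own mean, and the likeness is a description. Ehd3 was closest to Epas1 (RMS difference 0.123 log2 units, where the SD of Epas1 over the 12 arrays was 0.317), with means of 11.03 in μ-g, 10.94 in 1-g, 10.40 in 2-g and 10.47 in control. Ppargc1a (0.139), Pparg (0.148), Eda2r (0.148) and Fgf2 (0.154) followed. Closest to Egln1, with an SD of 0.689, were Higd1a (0.126), Pfkl (0.127), Selenbp1 (0.181), Pgm1 (0.183) and Arrb1 (0.194). Pfkl, a phosphofructokinase of glycolysis, averaged 10.34 in μ-g, 10.47 in 1-g, 11.96 in 2-g and 11.15 in control. Closest to Egln3, with an SD of 0.541, were Ccng2 (0.130), Rcor2 (0.134), P4ha2 (0.154), Adm (0.174) and Nrn1 (0.176), none of which is among the 5 closest to Egln1. Ccng2, a cyclin of quiescent cells, averaged 8.58 in μ-g, 8.68 in 1-g, 9.86 in 2-g and 8.94 in control. Closest to Arnt, whose SD was only 0.0803, were Rbm5 (0.0243), Polg (0.0315), Anks1 (0.0321), Sec23a (0.0340) and Cog6 (0.0353).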

How the data were processed

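Expression in MLO-Y4 cells was measured on Mouse Gene 1.0 ST arrays of Affymetrix, 3 for each of μ-g, 1-g, 2-g and control. The authors normalized the raw intensities with RMA and deposited log2 values of 28856 transcript clusters, which were used as they stand. The sources used here do not name the build or annotation of the summarisation. No array was left out, and no arrays were identical. Clusters were named through the platform table, and 19938 genes with a cluster of 1 symbol were compared, with the cluster of the highest mean taken where a gene had several. Genes of the lists without such a cluster were left out.

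The model had 1 mean for each group over the 12 arrays (limma 3.58.1, R 4.3.3, moderated by eBayes with the variance prior from all clusters), with Benjamini-Hochberg adjustment over the 19938 genes. The methods name LIMMA with a 1.5-fold limit and a P threshold, with no adjustment named, and this was run as an alternative with the unadjusted p. Within-array differences between members were tested by exact permutation in Python 3.11.15 over 15400 arrangements, with a smallest possible p of 6.49e-05. An exact test of 3 arrays against 3 cannot go below a two-sided p of 0.1. Both steps were tested on simulated data. The members, lists and comparisons were chosen with earlier results of these data known. All members were named, of other lists the genes with the smallest F test p (up to 4) and those that passed where 5 or fewer did, and for each member that passed the F test the 5 genes with the smallest RMS difference. Some further genes were named outside this rule, among them Vegfa, Hk2, Kdm3a and P4ha1.

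Replicate numbers recur in all groups. Deviations from the group means correlated by 0.342 on average between arrays of the same number and by −0.171 between others. The second value largely follows from the first, because deviations cancel out within a group. In each comparison but μ-g v.s. control every same-numbered pair was above 0.1. The exception is the pair of replicates 3 there (0.0179). The pairing thus comes from the values alone, since no label gives the meaning of the numbers. Alternatives were the replicate block, only the 2 groups of a comparison, genes above the median level, arrays centred on their medians, quantile normalization, an intensity trend with a robust prior, the mean of a gene's clusters, all clusters tested, array weights, and leaving out each array. Promoter sequences are those of RefSeq, build GRCm38.p6.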

Additional observations from a re-analysis of the deposited data

How the results depend on the processing

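The 60 fold changes of the members were recomputed as 1308 values, of which 33, of 14 fold changes that did not pass, had the other sign. With array weights Egln2 was at 0.01 in μ-g and 0.00 in 2-g against control. With quantile normalization Egln2 was at −0.03 between μ-g and 2-g and Hif3a at 0.00 between μ-g and 1-g. The other sign changes came from leaving out 1 array. The ranges were then −0.02 to 0.04 for Hif1a, and −0.05 to 0.02 for Egln2, in 2-g against control, −0.07 to 0.06 for Egln2 in μ-g against control and −0.06 to 0.07 for it between μ-g and 2-g. In 2-g against 1-g they were 0.00 to 0.03 for Arnt, −0.12 to 0.02 for Arnt2 and −0.02 to 0.05 for Egln2. In μ-g against 1-g they were −0.01 to 0.02 for Hif3a, −0.01 to 0.14 for Arnt2, −0.08 to 0.04 for Vhl, −0.07 to 0.00 for Hif1an, −0.03 to 0.02 for Egln1, −0.05 to 0.08 for Egln2 and −0.06 to 0.03 for Egln3. A limma fit of only the 2 groups compared called 0 members in μ-g v.s. control, 0 in 1-g v.s. control and 0 in 2-g v.s. control. In 1-g v.s. control 1 was called with array weights, where 59 of all genes were, and 1 at 1.5-fold with unadjusted p, where 0.14% were. In 2-g v.s. 1-g 2 members were called at that limit, and 0.652% of all genes. Leaving out each array in turn gave 3 to 4 members in the F test, 1 to 4 in μ-g v.s. control, 0 to 2 in 1-g v.s. control, 1 to 2 in 2-g v.s. control, 3 to 5 in μ-g v.s. 2-g, 3 to 4 in 2-g v.s. 1-g and 0 in μ-g v.s. 1-g. Of all genes these fits called 206 to 791, 2 to 392, 0 to 61, 145 to 660, 219 to 670, 168 to 461 and 0, listed alike. Over these fits the adjusted exact permutation p ran from 0.000325 to 0.00325 for Epas1 minus Hif1a, 0.000649 to 0.00406 for Egln1 minus Hif1a, 0.00114 to 0.00536 for Egln3 minus Hif1a, 0.0218 to 0.252 for Egln3 minus Egln1 and 0.000974 to 0.00536 for Egln2 minus Egln1. With the replicate block 4 members passed in μ-g v.s. control, where Hif1a (adjusted p = 0.0299) joined and where the numbers do not pair by the rule used, and 6 passed the F test, where Vhl (adjusted p = 0.00691) and Hif1a (adjusted p = 0.0214) joined. With it 23 of the HIF-1 targets fell in μ-g v.s. control, and of all genes 938, 352, 1870, 1831, 1510 and 2324 passed in μ-g, 1-g and 2-g v.s. control, then between μ-g and 2-g, between 2-g and 1-g and in the F test, against 164, 64, 620, 574, 451 and 629 without it. In the same order array weights gave 425, 59, 1222, 1113, 531 and 1231, and fits of only the 2 groups 0, 0, 151, 301 and 252. Genes above the median level gave 392, 141, 1014, 845, 702 and 1067, out of 9969 tested and not 19938. The intensity trend with a robust prior gave 109 in μ-g v.s. control. The F test of Arnt was lost with arrays centred on their medians (adjusted p = 0.0809) and with a variance prior from the named genes, chosen after seeing the data (adjusted p = 0.0528). With genes above the median level only, Egln3 and Hif3a were not tested. The cause of these changes was not tested. Small differences such as those of Hif1a and Arnt are near what 3 arrays a group can show, and RMA values carry no detection call for Hif3a, Egln3 or Epo.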
